A study of Arabidopsis thaliana with 6 samples.

Results

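The genes described here make nicotianamine or move iron and other metals with it over long distances in Arabidopsis thaliana. They were chosen by gene ID, with earlier results of these data known. The 9 are the nicotianamine synthase genes NAS1 to NAS4, the Yellow Stripe-Like transporter genes YSL1, YSL2 and YSL3, the transporter gene OPT3 and the reductase gene FRO3. All 9 were found among the 32948 genes of the deposited expression table, and all 9 passed the filter of a mean of at least 1 FPKM. FPKM is the number of fragments of a gene scaled to its length and to the size of the library, so levels can be set side by side between genes. The study compared seedlings on MS culture medium with 20 mM yttrium oxide nanoparticles, a rare-earth metal oxide, with control seedlings on MS medium alone. All seedlings were wild type and were taken at 6 h, and RNA came from whole seedlings. Each group had 3 libraries, numbered 1 to 3. Whether the libraries of 1 group stem from different cultures is not stated in the labels, and the p-values describe the spread between these samples alone, which may be technical.

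Nicotianamine is a small chelator that nicotianamine synthases make from S-adenosylmethionine. It binds iron, zinc, copper and other metals and keeps them soluble in the phloem and inside cells. YSL proteins carry metal complexes of nicotianamine across membranes, mainly in and around the veins. OPT3 loads iron into phloem companion cells, and plants with little OPT3 behave as if short of iron in the root while the leaves hold plenty. FRO3 is a ferric reductase of mitochondria that is strongly expressed in the vasculature.

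In the treated seedlings the 9 genes moved in both directions. NAS1, NAS2 and YSL1 were lower and YSL3, OPT3 and FRO3 were higher, while NAS3, NAS4 and YSL2 did not pass the threshold (limma on log2(FPKM + 1), Benjamini-Hochberg adjusted p under 0.05 over all 18614 genes tested). Among the YSL genes the calls went both ways. Set against 3 higher and 3 lower of the 9, the background was 14.5% of all tested genes called, 8.07% upward and 6.41% downward. The 9 were chosen with earlier results of these data known, so their share beside the background is not a test of the set. On the recovered reads edgeR called 15.8% and DESeq2 19.5% of genes, edgeR the same 6 of the 9 and DESeq2 also YSL2. The median change of the 9 genes was 0.36 on the log2(FPKM + 1) scale, and that of all tested genes was 0.00. Groups did not overlap for 4 of the 9 genes upward and 3 downward. Over all tested genes 35.6% had groups that did not overlap, 19% upward and 16.7% downward.

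**Figure D1:**
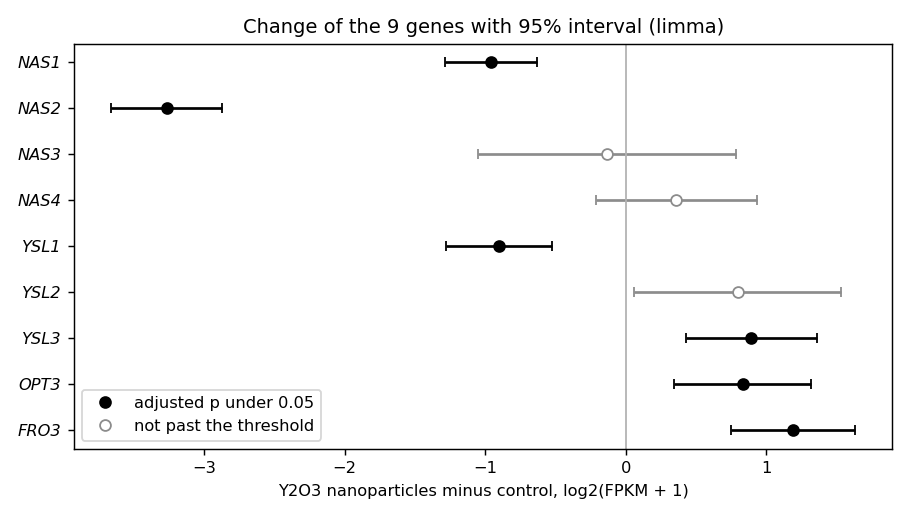
Change of each gene in treated minus control seedlings on the log2(FPKM + 1) scale, with its 95% interval from limma over 3 libraries per group; filled points passed the threshold. NAS2 lies farthest from 0 at -3.27, and the intervals of NAS3 and NAS4 include 0.

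Library totals recovered from the FPKM values lay between 19314683 and 23374306 reads. On the first principal component of log2(FPKM + 1), with 68.4% of the variance, the groups separated, and treated library 2 stood apart from treated libraries 1 and 3 on the second, with 12.1%. Markers of the root were lower in treated seedlings: 9 of 12 tested genes of a list of 14 fell and the other 3 did not pass. The list summed to between 482.4 and 544.1 FPKM in treated libraries and between 2013 and 2518 FPKM in controls. Most of each sum was the 1 gene BGLU23, so the sums say little about the other markers. BGLU23 had 516.6, 451.9 and 469.4 FPKM in treated libraries 1, 2 and 3, against 1949, 2004 and 2452 FPKM in control libraries 1, 2 and 3. The endodermal gene CASP1 averaged 0.154 FPKM in treated libraries and 9.27 FPKM in controls. CASP5 was listed at 0 in every treated library and averaged 0.157 FPKM in controls, on 4, 1 and 4 reads in control libraries 1, 2 and 3. Those reads lie near the 3 that a count of 0 allows, and CASP5 was not tested, so its values tell little. The root hair gene COBL9, also not tested, averaged 0.0151 FPKM in treated libraries and 0.987 FPKM in controls. In RNA of whole seedlings, fewer cells of a type and less RNA per cell cannot be told apart. The part of root tissue in the changes of the 9 genes was not tested.

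The promoters of 4 members are shown as examples with and without 1 motif. OPT3 and FRO3, both higher in treated seedlings, are the 2 of the 9 genes with a perfect CACGTG, the palindromic G-box core that many bHLH transcription factors bind, within 250 bases before and 50 bases after the start of the gene. NAS1 and NAS2 are the close pair of synthase genes that fell, and neither window holds that motif. Nor do those of YSL3, the other gene that rose, YSL1, which fell, and NAS3, NAS4 and YSL2, which did not pass the threshold. The sequences are those of TAIR10.1 from RefSeq, read 5′ to 3′ on the strand of the gene, from 250 bases before its start through the first 10 bases of the gene. The windows are chr4:9250334-9250593 on the minus strand for OPT3, chr1:8153787-8154046 on the minus strand for FRO3, chr5:22712432-22712691 on the minus strand for NAS2 and chr5:1459030-1459289 on the minus strand for NAS1. Capitals mark CACGTG.
OPT3: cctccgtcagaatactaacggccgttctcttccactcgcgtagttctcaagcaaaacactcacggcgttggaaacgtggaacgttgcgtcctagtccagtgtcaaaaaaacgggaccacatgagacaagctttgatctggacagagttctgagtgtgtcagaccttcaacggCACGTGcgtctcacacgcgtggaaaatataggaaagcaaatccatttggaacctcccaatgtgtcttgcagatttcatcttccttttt
FRO3: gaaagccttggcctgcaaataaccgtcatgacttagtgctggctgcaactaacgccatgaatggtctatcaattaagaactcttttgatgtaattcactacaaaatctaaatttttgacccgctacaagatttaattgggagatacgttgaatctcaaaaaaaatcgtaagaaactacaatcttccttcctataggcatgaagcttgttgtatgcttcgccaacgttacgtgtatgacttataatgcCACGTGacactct
NAS2: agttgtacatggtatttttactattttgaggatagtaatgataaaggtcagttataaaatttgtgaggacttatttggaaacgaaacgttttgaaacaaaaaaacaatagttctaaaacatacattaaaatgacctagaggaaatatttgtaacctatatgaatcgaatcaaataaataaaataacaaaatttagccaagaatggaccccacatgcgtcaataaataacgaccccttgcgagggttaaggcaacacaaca
NAS1: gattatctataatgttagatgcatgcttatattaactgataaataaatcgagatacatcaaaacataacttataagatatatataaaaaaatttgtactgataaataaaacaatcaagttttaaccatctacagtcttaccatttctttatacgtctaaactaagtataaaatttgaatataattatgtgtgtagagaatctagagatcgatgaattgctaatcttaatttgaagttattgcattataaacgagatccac

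CACGTG begins 78 bases before the start of OPT3 and 3 bases before that of FRO3, where its other bases lie in the gene. The motif reads the same on both strands. It occurred in 2 of the 9 windows and in 7.68% of the 27443 windows of protein-coding genes of the same length. The looser E-box CANNTG, which includes every CACGTG, was in 8 of the 9 windows, all but that of NAS1, and in 61.7% of all windows. TGTCGACA, a palindrome at the core of the element through which bZIP19 and bZIP23 respond to zinc shortage, was in none of the 9 windows and in 0.328% of all windows. Among the regulators of the iron response, CACGTG was in 4 of 17 windows, those of BHLH38, BHLH100, BTS and BHLH11, and BTS held 3 copies. Among the ferritin genes it was in 3 of 4, those of FER2, FER3 and FER4, and among the further YSL and OPT genes in 1 of 13, that of YSL7. CACGTG was also in 2 of 7 windows of the further FRO genes and 2 of 10 of the phloem genes. It was in 1 of 13 windows of S-adenosylmethionine supply and recycling and in 1 of 8 of photosynthesis. Limma called none of the genes of these last windows with the motif. FER3 and YSL7 were lower in treated seedlings, so windows with the motif belonged to genes called in either direction and to genes not called. A match describes these letters in these windows and shows no binding.

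The 4 synthase genes have 1 exon each, and their coding sequences are 963 bases long, or 975 in NAS4. By coding sequence they form 2 pairs: NAS1 and NAS2 shared 84.7% of aligned bases and NAS3 and NAS4 80.1%, while the other combinations shared 69.2% to 71.8%. YSL1, YSL2 and YSL3 shared 68.4% to 72.0% with each other. None of the 50-base stretches of NAS1, NAS2, NAS4, the YSL genes, OPT3 or FRO3 occurred anywhere else in the nuclear chromosomes, and of the 1354 in NAS3 there were 2 that did. Reads of that length could therefore tell the paralogues apart, although the sources used here give neither the read length nor the counting. Genes on the other strand overlapped 3.52% of the span of YSL2 and 0.611% of that of FRO3, and none overlapped the other members.

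NAS2 (AT5G56080, chromosome 5, 22711141 to 22712441, minus strand) is a synthase gene known mainly from roots. It had 0.106, 0.491 and 0.197 FPKM in treated libraries 1, 2 and 3, against 11.0, 9.42 and 13.1 FPKM in control libraries 1, 2 and 3. Every treated library lay far below every control, and the treated values rest on 3, 14 and 5 reads, the lowest of them at the limit that a count of 0 allows. NAS2 fell by 3.27 on the log2(FPKM + 1) scale (SE 0.172, limma adjusted p = 1.71e-05), which understates the change of so low a gene. Summed over each group, 22 reads in treated libraries stood against 930 in controls, a level 42.3-fold lower with an exact (Clopper-Pearson) 95% interval of 27.8 to 67.8 that covers counting error only. The authors' deposited table lists a log2 fold change of -5.39 for NAS2 (treated over control, adjusted p = 3.79e-39). By size of fall on the log2(FPKM + 1) scale, which favours well expressed genes, it ranked 27 among the 18614 tested genes. In controls its mean level exceeded that of 52.1% of tested genes, and in treated seedlings that of 0.50%.

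NAS1 (AT5G04950, chromosome 5, 1457641 to 1459039, minus strand), the nearest paralogue of NAS2, is expressed in roots and shoots. It had 34.9, 31.2 and 26.7 FPKM in treated libraries 1, 2 and 3, and 59.6, 53.3 and 70.3 FPKM in control libraries 1, 2 and 3. The groups did not overlap, and the treated mean was 0.506 times that of the controls. NAS1 fell by 0.96 on the log2(FPKM + 1) scale (SE 0.143, limma adjusted p = 0.00342). Unlike NAS2 it was still among the more abundant of the 9 genes in treated seedlings, at 30.9 ± 4.14 FPKM against 61.1 ± 8.62 FPKM in controls (SD, n = 3 each).

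NAS4 (AT1G56430, chromosome 1, 21136835 to 21138277, plus strand) is a synthase gene known to rise in iron shortage and a known target of the repressor PYE. It had 51.4, 50.5 and 27.0 FPKM in treated libraries 1, 2 and 3, against 27.6, 34.5 and 34.3 FPKM in control libraries 1, 2 and 3. Treated libraries 1 and 2 lay above all controls and treated library 3 lay below them all. The change was 0.36 on the log2(FPKM + 1) scale with a 95% interval of -0.21 to 0.93 (limma adjusted p = 0.374). Without treated library 3 the change was 0.66 and passed the threshold (limma adjusted p = 0.0246).

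NAS3 (AT1G09240, chromosome 1, 2984829 to 2986231, plus strand) is a synthase gene known mainly from leaves and reproductive organs. It had 4.28, 11.6 and 13.9 FPKM in treated libraries 1, 2 and 3, and 8.93, 13.7 and 7.94 FPKM in control libraries 1, 2 and 3. The groups overlapped, with treated library 1 the lowest of the 6 and treated library 3 the highest. The change was -0.13 on the log2(FPKM + 1) scale with a 95% interval of -1.05 to 0.79 (limma adjusted p = 0.850), an interval that reaches about as far on either side of 0.

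The FPKM of the 4 synthase genes summed to 90.7, 93.7 and 67.7 in treated libraries 1, 2 and 3, and to 107.1, 111.0 and 125.6 in control libraries 1, 2 and 3. The total was thus lower in every treated library, and its make-up differed. NAS4 made up 50.1 ± 9.0% of the sum in treated libraries and 28.0 ± 2.78% in controls, and NAS1 37.0 ± 3.32% in treated libraries and 53.2 ± 4.50% in controls. NAS2 made up 0.310 ± 0.204% in treated libraries and 9.73 ± 1.07% in controls (SD, n = 3 each). A share also depends on the other genes of the sum, and the level of NAS4 itself did not pass the threshold. In treated library 3 NAS4 had 27.0 FPKM, below all controls, yet made up 39.9% of the sum, against at most 31.1% in controls. The level of NAS4 over that of NAS1 was 1.47, 1.62 and 1.01 in treated libraries 1, 2 and 3, against 0.462, 0.648 and 0.487 in control libraries 1, 2 and 3. NAS4 was therefore the most abundant synthase transcript in every treated library, narrowly so in library 3, and NAS1 in every control.

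**Figure D2:**
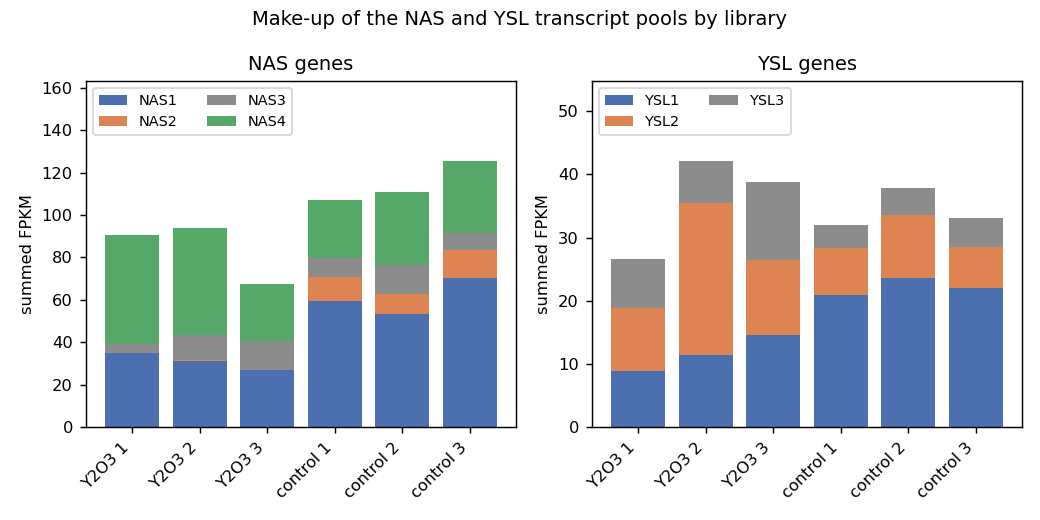
Summed FPKM of NAS1 to NAS4 (left) and of YSL1 to YSL3 (right) in each library, treated libraries first, with 1 colour per gene. The NAS sum was 67.7 to 93.7 FPKM in treated libraries and 107.1 to 125.6 FPKM in controls, while the YSL sums of the 2 groups overlapped.

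YSL1 (AT4G24120, chromosome 4, 12524186 to 12527347, plus strand) and YSL3 act together in leaves, where they move iron out of ageing tissue towards the seed. YSL1 had 8.84, 11.4 and 14.6 FPKM in treated libraries 1, 2 and 3, against 21.0, 23.6 and 22.1 FPKM in control libraries 1, 2 and 3. All treated libraries lay below all controls, which were close to each other. YSL1 fell by 0.90 on the log2(FPKM + 1) scale (SE 0.164, limma adjusted p = 0.00864).

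YSL3 (AT5G53550, chromosome 5, 21755251 to 21758950, plus strand) went the other way. It had 7.76, 6.64 and 12.3 FPKM in treated libraries 1, 2 and 3, and 3.67, 4.30 and 4.61 FPKM in control libraries 1, 2 and 3. All treated libraries were above all controls, with treated library 3 the highest. YSL3 rose by 0.89 on the log2(FPKM + 1) scale (SE 0.205, limma adjusted p = 0.0227), and the authors' deposited table lists a log2 fold change of 1.08. The call depends on having all 3 controls: limma adjusted p was 0.0957, 0.0681 and 0.0537 without control library 1, 2 and 3, at changes of 0.82, 0.91 and 0.95.

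YSL2 (AT5G24380, chromosome 5, 8323895 to 8326705, plus strand) is expressed in the vasculature and is thought to move metals sideways out of the veins. It had 9.96, 24.1 and 11.9 FPKM in treated libraries 1, 2 and 3, and 7.40, 9.95 and 6.42 FPKM in control libraries 1, 2 and 3. The groups only just failed to overlap, with treated library 1 at nearly the same level as control library 2, and treated library 2 stood apart upward. The change was 0.79 on the log2(FPKM + 1) scale with a 95% interval of 0.06 to 1.53, past an unadjusted p (0.0374) but not the adjusted threshold (limma adjusted p = 0.140). DESeq2 on the recovered reads called it higher (adjusted p = 0.0114) and edgeR did not (adjusted p = 0.123). Without treated library 2 the change was 0.44 (limma adjusted p = 0.138).

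The 3 transporter genes summed to 26.6, 42.2 and 38.8 FPKM in treated libraries 1, 2 and 3, and to 32.0, 37.9 and 33.1 FPKM in control libraries 1, 2 and 3, so the sums overlapped. Within the sum YSL1 had 32.6 ± 5.27% in treated libraries and 64.8 ± 2.24% in controls, YSL2 41.8 ± 13.7% in treated libraries and 22.9 ± 3.46% in controls, and YSL3 25.5 ± 8.58% in treated libraries and 12.2 ± 1.46% in controls (SD, n = 3 each). The level of YSL1 over that of YSL3 was 1.14, 1.72 and 1.19 in treated libraries 1, 2 and 3, and 5.72, 5.49 and 4.79 in control libraries 1, 2 and 3. YSL1 was the most abundant of the 3 in every control and in treated library 3, and YSL2 in treated libraries 1 and 2.

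OPT3 (AT4G16370, chromosome 4, 9247302 to 9250343, minus strand) was the most abundant of the 9 genes in every library. It had 172.6, 185.1 and 104.6 FPKM in treated libraries 1, 2 and 3, against 76.0, 91.2 and 84.6 FPKM in control libraries 1, 2 and 3. All treated libraries were above all controls, and treated library 3 stood nearest to them. OPT3 rose by 0.83 on the log2(FPKM + 1) scale (SE 0.211, limma adjusted p = 0.0363). The call was lost without treated library 1 (adjusted p = 0.116), treated library 2 (0.0582) or control library 1, 2 or 3 (0.129, 0.0787 and 0.0945), and held without treated library 3 (change 1.09, limma adjusted p = 0.00221). The call was also lost with no filter on low genes (limma adjusted p = 0.0521).

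FRO3 (AT1G23020, chromosome 1, 8149868 to 8153796, minus strand), like NAS4 a known target of PYE, had 42.2, 38.7 and 32.0 FPKM in treated libraries 1, 2 and 3, and 15.8, 12.1 and 20.7 FPKM in control libraries 1, 2 and 3. The groups were well apart, and the treated mean was 2.32 times that of the controls. FRO3 rose by 1.19 on the log2(FPKM + 1) scale (SE 0.192, limma adjusted p = 0.00547), which was the largest rise among the 9 genes. The authors' deposited table lists a log2 fold change of 1.22 for FRO3. NAS2, YSL3 and FRO3 are the 3 of the 9 genes in that table, which holds 6.39% of all genes and whose smallest absolute log2 fold change is 1.0.

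**Figure D3:**
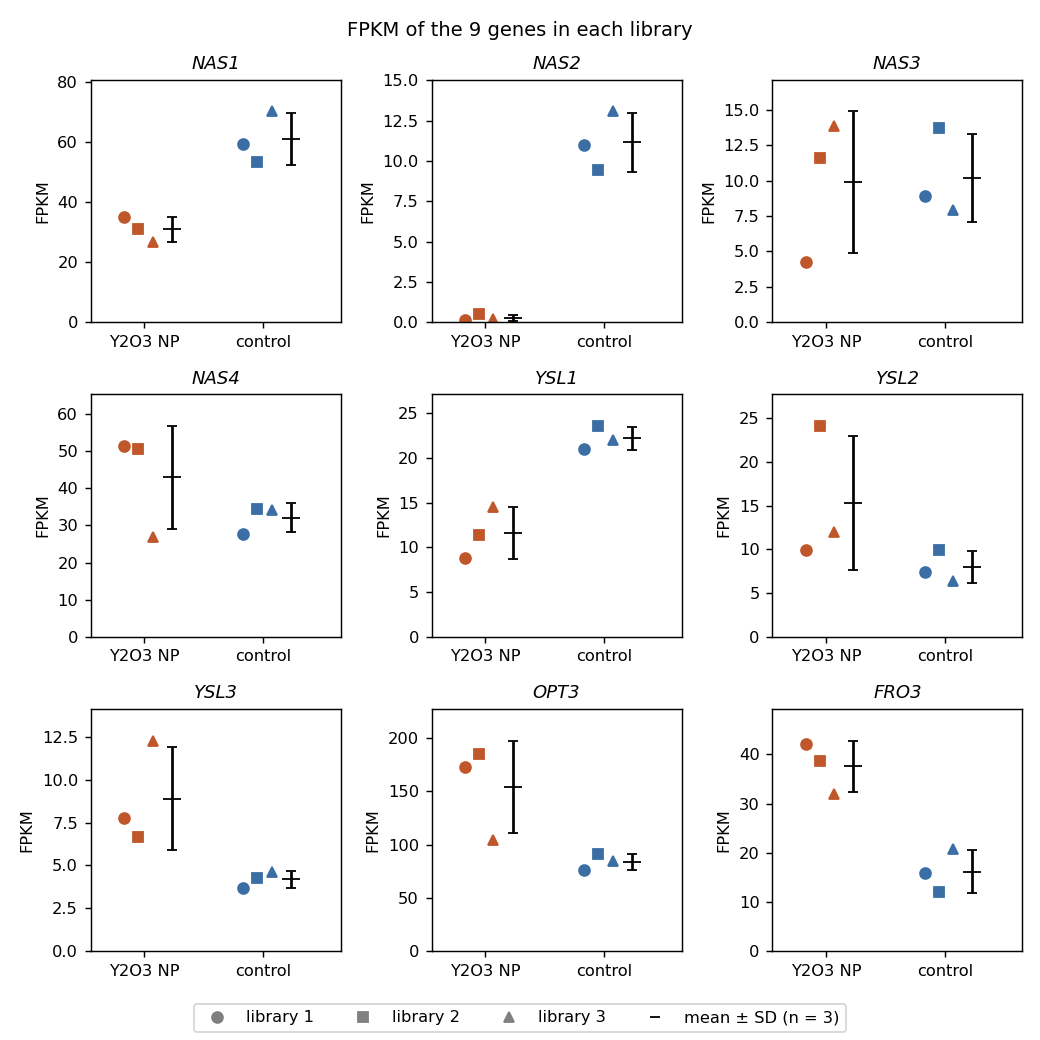
FPKM of each gene in each library, treated seedlings (Y2O3 NP) left of controls, with the mean and SD of 3 libraries beside them; each panel has its own scale from 0. Treated library 3 (triangle) is the lowest treated library for NAS1, NAS4, OPT3 and FRO3 and the highest for NAS3, YSL1 and YSL3.

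The order of the 9 genes by level differed between the groups. In treated seedlings OPT3 (154 ± 43.3 FPKM) was followed by NAS4 (43.0 ± 13.8), FRO3 (37.6 ± 5.20) and NAS1 (30.9 ± 4.14), whose libraries overlapped with their neighbours. Next came YSL2, YSL1, NAS3 and YSL3, between 15.3 and 8.89 FPKM and each overlapping with the next, and NAS2 (0.265 ± 0.201 FPKM) lay below them all. In controls OPT3 (83.9 ± 7.63 FPKM), NAS1 (61.1 ± 8.62), NAS4 (32.1 ± 3.95) and YSL1 (22.2 ± 1.32) stood apart from one another. FRO3, NAS2, NAS3 and YSL2 followed between 16.2 and 7.92 FPKM, each overlapping with the next, and YSL3 was lowest at 4.19 ± 0.482 FPKM (SD, n = 3 each).

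Treated libraries varied more than controls for most of the genes. The SD was 28.1% of the mean for OPT3 in treated libraries and 9.09% in controls, 32.2% for NAS4 in treated libraries and 12.3% in controls, and 24.7% for YSL1 in treated libraries and 5.95% in controls. FRO3 was an exception, with 13.8% in treated libraries and 26.7% in controls, as was NAS1, with 13.4% in treated libraries and 14.1% in controls. Treated library 3, lowest of the treated for OPT3 and NAS4, was also the lowest for the summed list of iron regulators, at 380.6 FPKM, against 635.0 and 562.3 FPKM in treated libraries 1 and 2 and 259.2 to 289.5 FPKM in controls.

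**Figure D4:**
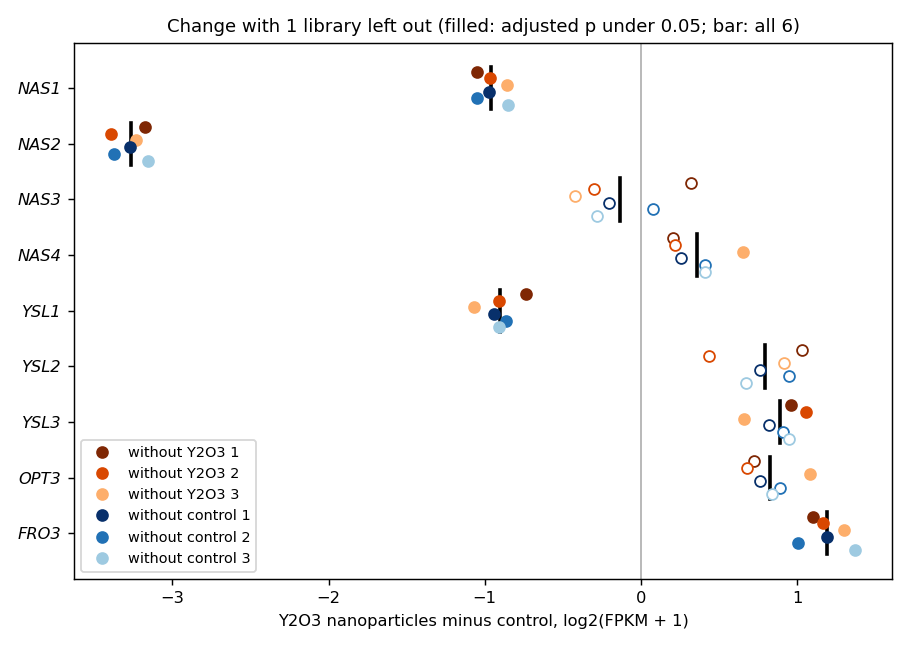
Change of each gene on the log2(FPKM + 1) scale with 1 library left out (points, filled where the adjusted p was under 0.05) and with all 6 (bars). NAS1, NAS2, YSL1 and FRO3 passed the threshold in every case, while YSL3 and OPT3 lost the call without any 1 control library, and OPT3 also without treated library 1 or 2.

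Several known regulators of the iron response were higher in treated seedlings. Of 16 tested members of a list of 17 iron regulators, 9 rose and the other 7 did not pass, with a median change of 0.79. With 1 library left out, between 4 and 8 of the list were called higher: 5, 6 and 8 without treated library 1, 2 and 3, and 4, 5 and 5 without control library 1, 2 and 3. BHLH100, BHLH101, IMA1 and BTS stayed past the threshold under all 16 alternatives. DESeq2 called 2 of the list lower, BTSL1 and BHLH115, and 3 were called lower without treated library 2. BHLH100, a transcription factor of subgroup Ib that is switched on in iron shortage, had 85.2, 69.8 and 29.2 FPKM in treated libraries 1, 2 and 3, against 2.62, 1.72 and 3.57 FPKM in control libraries 1, 2 and 3 (limma adjusted p = 0.000774). Its relative BHLH101 averaged 14.6 ± 7.85 FPKM in treated libraries and 0.675 ± 0.426 FPKM in controls (limma adjusted p = 0.00212), and BTS, a ubiquitin ligase that restrains the iron response, 57.0 ± 4.34 FPKM in treated libraries and 22.5 ± 2.43 FPKM in controls (limma adjusted p = 0.000227; SD, n = 3 each). PYE, named here for its known targets, had 23.7, 28.1 and 15.9 FPKM in treated libraries 1, 2 and 3, and 10.3, 11.7 and 9.81 FPKM in control libraries 1, 2 and 3 (limma adjusted p = 0.0123; 0.0576 without control library 1).

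Partners that handle iron or nicotianamine elsewhere in the plant held both a rise and a fall. ZIF1, which brings nicotianamine into the vacuole and is another known target of PYE, had 55.9, 48.6 and 38.6 FPKM in treated libraries 1, 2 and 3, against 12.1, 12.4 and 11.2 FPKM in control libraries 1, 2 and 3 (limma adjusted p = 8.98e-05). FRD3, which releases citrate into the root xylem for the upward transport of iron, averaged 1.60 ± 0.608 FPKM in treated libraries and 5.19 ± 0.433 FPKM in controls (limma adjusted p = 0.00348; SD, n = 3 each). These were the 2 that passed by limma among 6 tested of 8 listed. NRAMP3 was called lower by edgeR and DESeq2 (adjusted p = 0.0428 and 0.0292). DESeq2 but not edgeR called ZIFL1 lower and NRAMP4 higher (DESeq2 adjusted p = 0.0134 and 0.0209). For each of these genes the groups did not overlap. FPN2, not tested, averaged 0.358 FPKM in treated libraries and 1.06 FPKM in controls and is listed in the authors' deposited table. Of 10 tested further YSL and OPT genes of 13, OPT2 rose, with 1.91 ± 0.890 FPKM in treated libraries and 0.206 ± 0.0420 FPKM in controls, and YSL7 fell, with 0.688 ± 0.192 FPKM in treated libraries and 2.46 ± 0.215 FPKM in controls (limma adjusted p = 0.00695 and 0.00266; SD, n = 3 each). YSL8 and OPT1 did not pass (limma adjusted p = 0.0685 and 0.0600). Both edgeR and DESeq2 called YSL8 higher and OPT1 lower, and for each gene the groups did not overlap. Of 4 tested further FRO genes of 7, FRO2, the reductase at the root surface, fell to 0.258 ± 0.151 FPKM in treated libraries, against 1.76 ± 1.18 FPKM in controls (limma adjusted p = 0.0391; SD, n = 3 each). FRO2 lost the call without treated library 1 or 3, without control library 1 or 3 and with no filter. FRO6 had 2.55, 2.94 and 9.75 FPKM in treated libraries 1, 2 and 3, against 1.57, 2.04 and 1.54 FPKM in control libraries 1, 2 and 3, and FRO7 had 4.22, 3.50 and 11.9 FPKM in treated libraries 1, 2 and 3, against 2.60, 3.19 and 2.26 FPKM in control libraries 1, 2 and 3. Neither passed (limma adjusted p = 0.156 and 0.173), though their groups did not overlap and DESeq2 called both higher. FRO7 is also listed in the authors' deposited table. The supply of S-adenosylmethionine, the precursor of nicotianamine, and the recycling of its by-product methylthioadenosine had 12 tested genes of 13. Among these ARD4, a dioxygenase of the recycling, rose to 41.2 ± 1.5 FPKM in treated libraries, against 29.6 ± 3.32 FPKM in controls (limma adjusted p = 0.0283; SD, n = 3 each), and the other 11 did not pass. ARD4 lost the call in 5 of the 6 fits with 1 library left out, all but that without control library 1 (limma adjusted p up to 0.0879).

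Most tested genes of iron uptake at the root surface, and 2 of the 4 ferritin genes, were lower. Of 8 tested genes of a list of 14 around the transcription factor FIT, 6 fell and the other 2 did not pass, with a median change of -1.60, beside -1.62 for the root markers. Without treated library 1, 2 and 3 the list had 4, 5 and 4 genes called lower, and without control library 1, 2 and 3 it had 4, 7 and 4. IRT1 lost the call in 5 of these fits, while FIT, F6H1 and AHA2 kept it under all alternatives. FIT itself had 0.931, 1.65 and 1.0 FPKM in treated libraries 1, 2 and 3, against 12.8, 10.9 and 13.4 FPKM in control libraries 1, 2 and 3 (limma adjusted p = 3.18e-05). F6H1, an enzyme of the coumarins that roots release to mobilise iron, averaged 6.93 ± 1.97 FPKM in treated libraries and 38.0 ± 3.48 FPKM in controls, and the proton pump gene AHA2 81.6 ± 7.91 FPKM in treated libraries and 218.9 ± 24.3 FPKM in controls (limma adjusted p = 0.000130 and 0.000204; SD, n = 3 each). Of the 4 ferritin genes, whose proteins store iron, FER1 and FER3 fell and the other 2 did not pass. FER4 averaged 21.4 ± 11.8 FPKM in treated libraries and 21.0 ± 2.08 FPKM in controls (limma adjusted p = 0.868; SD, n = 3 each). FER1 averaged 68.2 ± 21.9 FPKM in treated libraries and 205.3 ± 5.70 FPKM in controls (SD, n = 3 each), and its value is uncertain because a gene on the other strand covers 63.6% of its span and the use of strand is not known. In the list of zinc shortage, in which NAS2 and NAS4 are also known to take part, ZIP3 fell to 0.405 ± 0.102 FPKM in treated libraries, against 8.30 ± 0.817 FPKM in controls (limma adjusted p = 1.71e-05; SD, n = 3 each), and the other 5 of 6 tested did not pass. Both edgeR and DESeq2 called ZIP5 higher (adjusted p = 0.0494 and 0.0452), and its groups did not overlap. Of the genes not tested, ZIP9 averaged 0.0114 FPKM in treated libraries and 0.782 FPKM in controls. ZIP12 went the other way, with 0.417 FPKM in treated libraries and 0.0854 FPKM in controls.

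Markers of the tissues in which the transporters act were read beside them. Of 9 tested phloem genes of 10, SWEET12, a sugar exporter of phloem parenchyma, rose to 16.7 ± 5.24 FPKM in treated libraries, against 7.10 ± 2.15 FPKM in controls (limma adjusted p = 0.0227; SD, n = 3 each), and the other 8 did not pass. SWEET12 lost the call without treated library 1 and without control library 1 or 3. The phloem list summed to between 138.0 and 195.2 FPKM in treated libraries and between 117.3 and 132.3 FPKM in controls. Much of that difference lay in SWEET12 and SWEET11, so the sums do not show a rise of the whole list. SWEET11 had 35.6, 30.3 and 62.1 FPKM in treated libraries 1, 2 and 3, against 25.7, 29.1 and 22.5 FPKM in control libraries 1, 2 and 3 (limma adjusted p = 0.134), and DESeq2 called it higher. The companion cell gene SUC2 had 46.2, 30.4 and 37.7 FPKM in treated libraries 1, 2 and 3, against 28.3, 29.2 and 34.0 FPKM in control libraries 1, 2 and 3. Of 6 tested xylem genes of 8, XCP1, a protease of xylem vessels, and CESA8, a cellulose synthase of secondary walls, fell (limma adjusted p = 0.0156 and 0.0319), and the sums were 15.2 to 16.7 FPKM in treated libraries and 21.6 to 27.5 FPKM in controls. With any 1 library left out 1 of these 2 calls was lost, that of XCP1 without treated library 3 (limma adjusted p = 0.0508) and that of CESA8 in the other 5 fits and with the replicate block. None of the 7 genes of the shoot epidermis and guard cells was called by limma or edgeR, DESeq2 called 1 lower, and 2 had an unadjusted limma p under 0.05. Of 8 photosynthesis genes LHCB2.1, an antenna protein gene, rose (not past the threshold without control library 1 or 2) and the other 7 did not pass. The list summed to between 16273 and 19377 FPKM in treated libraries and between 15536 and 17828 FPKM in controls. Most of each sum was RBCS1A and LHCB1.3, with changes of -0.15 and 0.27 on the log2(FPKM + 1) scale, so the sums say little about the other genes. The part of phloem and xylem tissue in the changes of YSL1, YSL3, OPT3 and FRO3 was not tested.

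**Figure D5:**
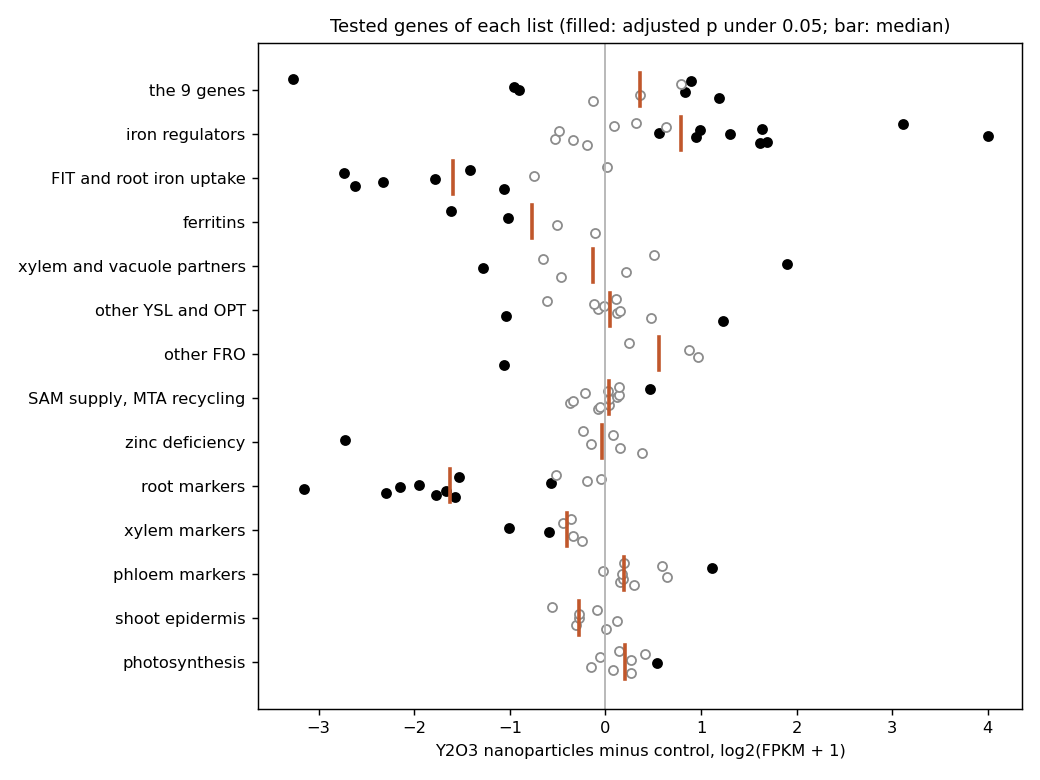
Change of each tested gene on the log2(FPKM + 1) scale in treated minus control seedlings, by list; filled points passed the threshold and the bar is the median of the list. The 9 genes spread from -3.27 to 1.19, with the list around FIT and the root markers to the left (medians -1.60 and -1.62) and the iron regulators to the right (median 0.79).

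The genes nearest in profile were taken as those with the smallest Euclidean distance over the 6 libraries between log2(FPKM + 1) values less the mean of the gene. For NAS2 they were the peroxidase gene PER45 (AT4G30170, distance 0.194), FLS5 (AT5G63600, 0.335), a member of the flavonol synthase family, and the cytochrome P450 gene CYP705A5 (AT5G47990, 0.388). PER45 averaged 1.75 ± 0.564 FPKM in treated libraries and 26.0 ± 5.24 FPKM in controls (SD, n = 3 each). For FRO3 they were HSR4 (AT3G50930, distance 0.182), whose protein sits in the outer mitochondrial membrane, a gene that the authors' table marks as outside the annotation (0.249) and NUDT4 (AT1G18300, 0.291). HSR4 averaged 38.5 ± 6.91 FPKM in treated libraries and 15.6 ± 3.92 FPKM in controls (SD, n = 3 each).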

How the data were processed

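Messenger RNA of whole seedlings was sequenced from Illumina libraries, and groups come from the treatment label. The authors deposited FPKM per gene and library, made with HISAT2 2.0.5 and TAIR10 per the submitters' processing notes. Which counter, annotation release, strand setting and filters they used is not given in the sources used here. FPKM times gene length fell on whole multiples of a library-specific step in 100% of cases, to within 0.01, which gave back the reads. The authors' deposited comparison table gives a signal (reads divided by a size factor), raw and adjusted p-values and a log2 fold change for 2104 genes. Of the gene IDs, 32548 matched TAIR10.1, 99.95% of them with the same start and end, so that reference was used for sequence.

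Genes with a mean of at least 1 FPKM were tested with limma 3.58.1 (lmFit, eBayes with trend and robust, 2-sided) in R 4.3.3 on log2(FPKM + 1), treatment being the only term. A step checked on simulated counts came first. edgeR 4.0.16 (quasi-likelihood) and DESeq2 1.42.0 on the recovered reads were alternatives, beside pseudocounts of 0.1 and 0.5, no filter, a minimum mean of 5 FPKM, TMM and median-ratio scaling, eBayes without trend and robust, a replicate block, and each library left out. Values are mean ± SD. A count of 0 allows up to 3 reads, for counting error only.

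The 9 genes and the 13 comparison lists (132 entries, all found by ID) were chosen with earlier results of these data known. Named genes were all 9 and up to 3 past the threshold per list and direction by adjusted p. The 3 nearest in profile to the largest rise and fall were also named. PYE, IMA1, BTSL1, BHLH11, BHLH38, BHLH115, FER2, FER4 and IRT1 were named after their values were seen. The same holds for YSL8, OPT1, FRO6, FRO7, CASP5, COBL9, SUC2 and SWEET11.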

Additional observations from a re-analysis of the deposited data

How the results depend on the processing

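NAS1, NAS2, YSL1 and FRO3 kept their direction and stayed past the threshold under all 16 alternatives, with log2 changes of -1.05 to -0.85, -5.40 to -3.16, -1.07 to -0.74 and 1.01 to 1.37. YSL3 lost the call in 3 of the 16 and OPT3 in 6, all named with their values above. NAS4 gained a call without treated library 3, and YSL2 gained one with DESeq2 and with the replicate block (limma adjusted p = 0.0241). The change of NAS3 lay between -0.42 and 0.32 with 1 library left out and turned its sign without treated library 1 (0.32) and without control library 2 (0.08). With 1 library left out, 1 to 4 of the 9 genes were called higher and 3 in each case lower, and 1393 to 3417 genes were called over the whole table, against 2696 with all 6. The lowest of these counts came without control library 1, and without control library 2 there were 1580; the cause was not tested beyond the smaller number of samples. The replicate numbers were not taken as pairs in the main fit. The deviations of same-numbered libraries correlated at 0.0861, 0.383 and 0.101. Differently numbered ones correlated at -0.379 and 0.302 for treated library 1 with control libraries 2 and 3. The values were -0.0107 and -0.371 for treated library 2 with control libraries 1 and 3. For treated library 3 with control libraries 1 and 2 they were -0.0749 and -0.0358. Whether same-numbered libraries share an effect was not tested. With the block 3256 genes were called, against 2696 without it, and 4 of the 9 genes were higher and 3 lower. Counts in the 13 lists, higher and lower, were labelled unchanged in 358 of 416 cases, by a rule of at most 1.5 times. A count of 0 in both fits also got that label. Many list counts were 0 in the main fit, so the share says little about the lists that held calls. Depth, through counting error, limits NAS2 in treated libraries, which rests on 3 to 14 reads, and its fold is accordingly wide.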
